A study of Rattus norvegicus with 23 samples.

Results

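The genes described here are 34 members of the solute carrier families that move amino acids and neurotransmitters across membranes, out of 14690 genes named in the authors' tables. They were chosen by symbol alone, from the named genes beginning with Slc1a, Slc3a, Slc6a, Slc7a, Slc36a or Slc38a, leaving out Slc1a2 and Slc1a3. The rule uses no measured value, and it was set with earlier results of these data known. The members were followed by identifier through the count files, and 33 of them are listed in every file. Slc6a20, a carrier of proline and related compounds, is listed only in the files of differentiating CG4 cells. Slc7a6os, named for its place opposite Slc7a6, fell under the rule by its name and is not a transporter. The names come from tables on differentiating CG4 cells, so a family member counted mainly in other cells can be missing from the 34.

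RNA was sequenced in 23 libraries of rat oligodendroglia, the glial lineage that makes myelin. CG4 is an immortalized line that was derived from primary rat oligodendroglia of the brain. Of its libraries, 12 came from cells transduced with pCAG-IRES-EGFP (control), pCAG-myc-Zfp488-IRES-EGFP or pCAGT7-Nkx2.2-IRES-EGFP, with 4 libraries each. These cells had been differentiated for 3 days in SATO medium with high T3/T4 (thyroid hormones) and CNTF (a cytokine). All 3 vectors carry EGFP, and Zfp488 and Nkx2.2 are transcription factors of the oligodendrocyte lineage. Another 3 libraries came from wild-type CG4 cells without a vector, kept proliferating with the growth factors bFGF and PDGF-AA and read at 100 bases per end, where all other libraries were read at 150. Wild-type primary oligodendroglia, obtained by shake-off from mixed glial cultures, gave 4 proliferating libraries in the same growth factors and 4 libraries after 3 days of differentiation in the medium described above. The titles call the libraries of a group biological replicates, and every p-value is read against their spread alone. All samples are bulk RNA, in which fewer cells of a type and less RNA per cell cannot be told apart.

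Amino acid transporters work as uniporters, as exchangers or as carriers coupled to sodium or protons. SLC1 holds glutamate and small neutral amino acid carriers. SLC7 light chains reach the cell surface with a heavy chain of SLC3, and the cationic amino acid transporters of SLC7 work without one. SLC6 takes up glycine, taurine, creatine and neutral amino acids with sodium and chloride. SLC36 includes carriers that move small amino acids with protons, and SLC38 carries glutamine and other neutral amino acids with sodium. Several of these genes are known targets of ATF4, the transcription factor of the response to amino acid shortage. Oligodendrocytes are also known to synthesise creatine and to hold glutamine synthetase.

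Levels are CPM, counts per 1e+06 counts scaled for library composition over the genes listed in all files, given as the value of each library in the order of its number or as mean ± SD. The files do not give gene lengths, so levels are compared within a gene only. Differences are log2 fold changes ± SE of edgeR's quasi-likelihood test, and a gene passed, or rose or fell, where its p adjusted over all genes tested was under 0.05. Total counts per library ran from 20063345 to 49206479. The gene introduced by each vector was higher in all 4 of its libraries than in every control library, at 131 to 201 against 34.0 to 58.8 CPM for Zfp488 and 1289 to 2009 against 210.5 to 304 CPM for Nkx2-2. The summed level of 6 oligodendrocyte markers (Mbp, Mog, Mag, Cnp, Mobp and Myrf) was 1035 to 1085 CPM in proliferating and 68380 to 77402 CPM in differentiating primary cells, and 1550.1 to 2368 against 8827 to 15116 CPM in proliferating and control CG4 cells. Of 7 microglia markers only Csf1r is named in the tables, and it stood at 343 to 360 CPM in proliferating primary cells, 12.2 to 16.3 CPM in differentiating primary cells and under 1 CPM in every CG4 group. Among 5 named astrocyte markers, the summed level was 81.5 to 86.0 CPM in proliferating and 1111 to 2151 CPM in differentiating primary cells, and 57.8 to 134 against 1673 to 3165 CPM in proliferating and control CG4 cells. Gfap, the intermediate filament of astrocytes, stood at 4.34 and 1067 CPM on average in the 2 primary states and at 0.177 and 1314 CPM in the 2 CG4 states. The part of other cell types in the differentiation results of either kind of cell was not tested.

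Members were sorted by the group with their highest mean, a sorting that places every gene in some group whatever the margin. The share of all genes in each group is not given here. Of the 33 members in all files, 9 had their highest mean in proliferating CG4 cells, 7 in proliferating and 5 in differentiating primary cells, 6 in CG4 cells with Nkx2.2, 4 with the control vector and 2 with Zfp488. The 9 of proliferating CG4 cells included the leucine carrier Slc7a5, its heavy chain Slc3a2 and the glutamine carrier Slc38a1. They also included the cystine carrier Slc7a11, the glutamine carrier Slc38a2 and the neutral amino acid exchanger Slc1a4, which were highest in other groups once proliferating CG4 library 1, described below with its own values, was left out. Slc7a8, at 51.4 and 8.54 CPM in proliferating CG4 libraries 2 and 3, then joined them, so that 7 members remained. Over all 6 comparisons, with all libraries and without a replicate block, 30 of the 34 members passed in at least 1. The other 4 were Slc3a2, Slc6a20, Slc36a1 and Slc7a6os. Of these Slc7a6os lay between 28.0 and 34.7 CPM in every group mean. The share of all genes that passed in at least 1 comparison is not given here. In primary cells alone 84.8% of all genes tested passed, so the count of 30 says nothing particular about the members.

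**Figure D1:**
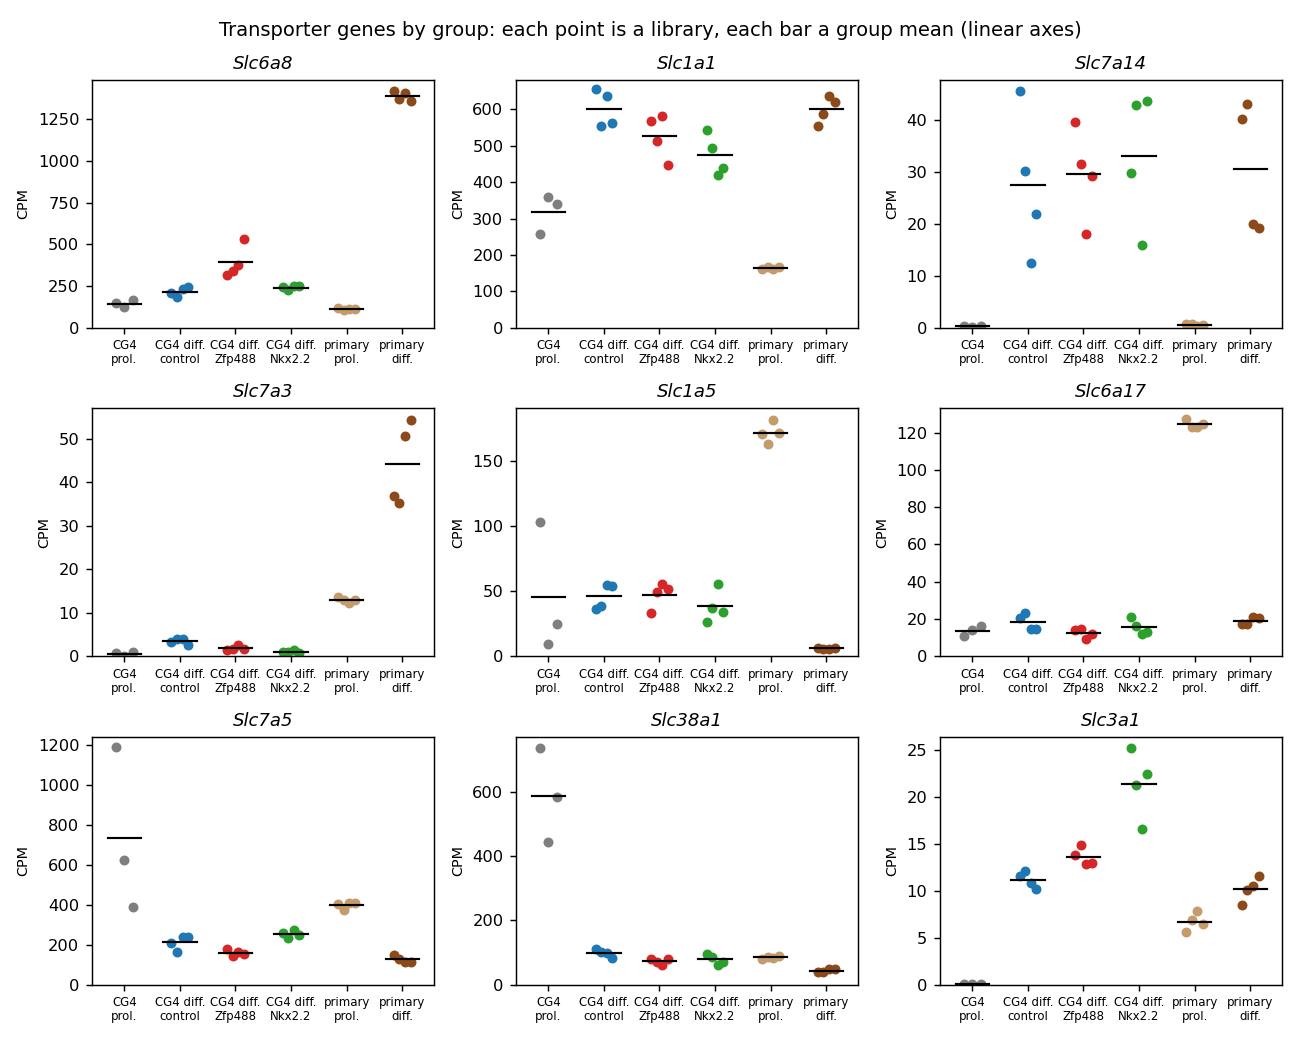
Level of 9 transporter genes in CPM (vertical axes, linear, each from 0) in the 6 groups (horizontal axes; prol., proliferating; diff., differentiating); points are libraries and bars are group means. Slc6a8 stood at 1358 CPM or more in every differentiating primary library, above all others, and Slc7a14 was near 0 in both proliferating groups.

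The comparison of differentiating with proliferating primary cells asks how transporters change as oligodendroglia mature. The creatine transporter Slc6a8, the glutamate transporter Slc1a1 and the taurine transporter Slc6a6 rose, while the glutamine carrier Slc1a5, the neutral amino acid transporter Slc6a17 and 5 of 7 SLC7 light chains fell. In all, 28 of 33 members passed, 15 higher and 13 lower, where 84.8% of all genes tested passed (41.5% higher and 43.3% lower), a share near that of the members. At a log2 change of at least 1, 9 members rose and 6 fell, beside 18.1% and 20.3% of all genes. The median change was 0.04 over the members and -0.02 over all genes.

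In the SLC1 family 1 member rose and 2 fell. Slc1a1 (ENSRNOG00000014816), which takes up glutamate, aspartate and cysteine and is also called EAAC1, stood at 161, 167, 161 and 166 CPM in proliferating and 555, 587, 637 and 620.0 CPM in differentiating libraries. Every differentiating library lay above every proliferating one, a rise of 1.91 ± 0.05 (adjusted p = 4.66e-11). Slc1a5 (ENSRNOG00000015948), the sodium-dependent exchanger of glutamine and other neutral amino acids known as ASCT2, stood at 171, 163, 182 and 171 CPM in proliferating and 6.54, 5.40, 5.72 and 6.18 CPM in differentiating libraries. It fell by 4.81 ± 0.07 on the log2 scale (adjusted p = 4.77e-13), the lowest value among the 33 members, and the libraries of each state lay close together. The related exchanger Slc1a4 moved less, from 67.4 ± 0.967 to 43.5 ± 5.44 CPM (-0.59 ± 0.07, adjusted p = 1.3e-05).

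The heavy chains and light chains of the heteromeric transporters did not move together. Slc3a2, the heavy chain CD98 that most light chains use, stood at 225 ± 5.91 and 209 ± 23.9 CPM, a difference of -0.07 ± 0.07 that did not pass (adjusted p = 0.353). Its light chain Slc7a5 (ENSRNOG00000018824), or LAT1, which brings in leucine and other large neutral amino acids, stood at 405, 375, 410.0 and 406 CPM in proliferating and 146, 129, 115 and 114 CPM in differentiating libraries. All 4 differentiating libraries lay below all 4 proliferating ones, and the gene fell by 1.63 ± 0.07 (adjusted p = 2.28e-09). Slc7a8 (ENSRNOG00000014311), the related exchanger LAT2, stood at 27.4, 25.7, 28.9 and 28.6 CPM and then 5.03, 5.17, 5.29 and 6.48 CPM, and fell by 2.30 ± 0.09 (adjusted p = 6.73e-10). Slc7a7 (ENSRNOG00000010296), the light chain that exchanges cationic for neutral amino acids, stood at 12.3, 11.0, 12.5 and 11.3 CPM and then 1.62, 2.07, 1.63 and 1.63 CPM, and fell by 2.71 ± 0.10 (adjusted p = 7.03e-10). Its relative Slc7a6 fell by 0.50 ± 0.04, from 107 ± 0.528 to 74.0 ± 2.89 CPM, and the cystine and glutamate exchanger Slc7a11 fell by 0.83 ± 0.10, from 13.1 ± 0.626 to 7.19 ± 1.02 CPM. Over the same libraries the microglia marker Csf1r fell from 353 ± 7.33 to 14.3 ± 1.91 CPM, and the sum of the 2 named connective tissue markers (Col1a1 and Col3a1, of 8 listed) went from 56.8 to 78.4 down to 5.52 to 10.5 CPM. Their part in the falls of Slc7a7, Slc7a8, Slc1a5 and the other members was not tested.

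The second heavy chain and its own partner rose. Slc3a1, known as rBAT, pairs with the light chain Slc7a9 to carry cystine and cationic amino acids, a system best known from kidney and intestine. Slc3a1 went from 6.69 ± 0.915 to 10.1 ± 1.29 CPM (0.64 ± 0.12, adjusted p = 0.000604). Slc7a9 had 10 counts in all 4 proliferating libraries together and 249 in the differentiating ones, a ratio of 31.1 with a 95% exact counting interval of 16.6 to 65.7, which covers counting error only. Slc7a10, or Asc-1, a carrier of small neutral amino acids such as serine and glycine, stood at 1.16 ± 0.145 and 1.96 ± 0.259 CPM (0.79 ± 0.16, adjusted p = 0.000757).

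Of the 5 cationic amino acid transporters and their relatives 4 rose. Slc7a14, a member of this branch found inside cells, stood at 0.703, 0.656, 0.392 and 0.586 CPM in proliferating and 40.3, 43.0, 20.1 and 19.2 CPM in differentiating libraries (5.72 ± 0.37, adjusted p = 5.55e-08). Differentiating libraries 1 and 2 held more of it than libraries 3 and 4, a ratio of 2.12 between the means of the pairs. Slc7a3, a transporter of arginine and lysine, was at 12.9 ± 0.555 and 44.2 ± 9.61 CPM (1.81 ± 0.14), Slc7a4, a relative without a settled substrate, at 1.60 ± 0.216 and 4.72 ± 0.790 CPM (1.59 ± 0.16), and Slc7a2, another arginine transporter, at 6.71 ± 0.490 and 12.2 ± 0.736 CPM (0.90 ± 0.08), with adjusted p from 3.11e-07 to 2.5e-06. The widely expressed arginine transporter Slc7a1 stood at 235 ± 7.42 and 231 ± 37.6 CPM and did not pass (0.01 ± 0.09, adjusted p = 0.923).

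Among the SLC6 carriers the creatine and taurine transporters rose and the neutral amino acid transporters fell. Slc6a8 (ENSRNOG00000057620), which brings creatine into the cell, stood at 116, 109, 113 and 112 CPM in proliferating libraries and 1423, 1372, 1407 and 1358 CPM in differentiating ones. The groups lay far apart with little spread, a rise of 3.67 ± 0.04 with the smallest adjusted p of the members (1.61e-13). Slc6a6 (ENSRNOG00000009019), the taurine transporter, stood at 129.8, 137, 127 and 136 CPM and then 365, 392, 343 and 319 CPM, and rose by 1.46 ± 0.06 (adjusted p = 9.24e-10). Slc6a17 (ENSRNOG00000050090), a neutral amino acid carrier known from synaptic vesicles of neurons, stood at 127, 123, 123 and 125 CPM in proliferating and 17.5, 17.4, 21.2 and 20.2 CPM in differentiating libraries. It fell by 2.67 ± 0.07 (adjusted p = 2.42e-11), with no overlap between the groups. Slc6a15, a carrier of branched-chain amino acids and proline, fell by 1.72 ± 0.15, from 23.3 ± 1.05 to 6.97 ± 1.85 CPM (adjusted p = 8.17e-07). The 6 named neuron markers did not move alike. Mean levels went from 209 to 80.2 CPM for Tubb3, from 47.3 to 18.8 for Gad1, from 28.4 to 5.53 for Snap25 and from 11.6 to 3.06 for Rbfox3, while Syt1 went from 9.48 to 80.5 CPM and Slc17a7 was under 1 CPM in both states. Their sum was 299.8 to 314 CPM in proliferating and 181 to 191 CPM in differentiating cells, and their part in these falls was not tested. The glycine transporter Slc6a9 stood at 21.1 ± 1.65 and 21.4 ± 2.83 CPM and did not pass (0.06 ± 0.10, adjusted p = 0.606).

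The SLC36 and SLC38 carriers moved both ways. In SLC36, Slc36a4, a carrier with high affinity for proline and tryptophan, fell by 0.67 ± 0.06, from 25.0 ± 1.31 to 15.3 ± 0.607 CPM, while the lysosomal Slc36a1 stood at 15.8 ± 0.926 and 15.6 ± 2.25 CPM and did not pass (adjusted p = 0.787). All 8 SLC38 members passed, 5 higher and 3 lower. Slc38a3, or SN1, a carrier that can release as well as take up glutamine, rose by 2.12 ± 0.17, from 14.8 ± 0.972 to 62.5 ± 17.4 CPM (adjusted p = 3.73e-07). Slc38a9, the lysosomal arginine sensor of the growth regulator mTORC1, rose by 1.12 ± 0.06, from 16.5 ± 0.756 to 34.7 ± 1.98 CPM (adjusted p = 7.21e-09). Slc38a1, or SNAT1, a carrier that takes up glutamine, fell by 0.93 ± 0.07, from 84.3 ± 3.25 to 43.3 ± 4.74 CPM (adjusted p = 3.9e-07), while its relative Slc38a2 rose by 0.40 ± 0.04, from 286 ± 6.57 to 368 ± 15.7 CPM (adjusted p = 3.15e-06). The other 4 also passed. Slc38a10 went from 102 to 138 CPM and Slc38a4 from 0.854 to 1.33 CPM. Slc38a6 went from 6.10 to 4.37 CPM and the lysosomal glutamine carrier Slc38a7 from 47.7 to 37.0 CPM. The call of Slc38a4 was lost without proliferating library 1 (0.55 ± 0.24, adjusted p = 0.0531) and with differentiating libraries 1 and 2 alone (0.47 ± 0.25, adjusted p = 0.0865).

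Among differentiating primary cells, library 1 was close to library 2 and library 3 to library 4. Their difference in units of counting noise (chi-square per degree of freedom) was 8.16 and 1.74 within the pairs and 28.1 to 35.5 across them. The labels do not say what a pair shares. The main fit takes the 4 libraries as separate, so the SE and adjusted p of primary cells can be too small. With the libraries summed by pair all 28 calls held. The pairs did not overlap for 23 of 33 members (69.7%), beside 62.5% of 11217 genes at or above 1 CPM. They differed by over 1.5-fold for 4 members (12.1%, beside 6.23% of genes), namely Slc7a14, Slc7a9, Slc38a3 and Slc6a15. With libraries 1 and 2 alone 29 members passed (85.4% of all genes), and with libraries 3 and 4 alone 31 passed (85.7%). On the differentiating side either fit holds only the spread within a pair.

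The same question was asked of CG4 cells, where control cells after 3 days of differentiation were set against proliferating cells. These groups also differ in the vector, the read length and the gene list of the file, which cannot be told apart from differentiation. The heavy chain Slc3a1, its partner Slc7a9 and the intracellular Slc7a14 went from near 0 to clear expression, Slc1a1, Slc6a8 and Slc6a6 rose, and Slc38a1 and Slc7a5 fell. Of 33 members 19 passed, 14 higher and 5 lower, where 65.8% of all genes passed (32.5% higher and 33.2% lower). At a log2 change of at least 1, 8 rose and 4 fell, beside 22.8% and 19% of all genes. The median change was 0.33 over the members and 0.01 over all genes.

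Proliferating CG4 library 1 stood apart for many members. It had the highest level of the 3 libraries for 16 of 27 members whose mean reached 1 CPM (59.3%, beside 37.1% of all such genes), and was at least 2-fold above both others for 4 of them (14.8%, beside 3.27%). Slc7a11 stood at 172, 7.43 and 11.5 CPM and Slc1a5 at 103, 9.27 and 24.3 CPM in libraries 1, 2 and 3. The remaining pair were the glycine transporter Slc6a9 (116, 38.5 and 39.7 CPM) and Slc7a7 (5.79, 0.968 and 1.70 CPM). Library 2 in turn was the highest for Slc7a8, which stood at 4.23, 51.4 and 8.54 CPM in the same order. Calls of members that change without library 1 are therefore given both ways.

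Genes of the heteromeric system Slc3a1 with Slc7a9 lay far apart between the 2 states. Slc3a1 (ENSRNOG00000007006) stood at 0.0478, 0.0937 and 0.0728 CPM in proliferating and 11.6, 12.1, 10.8 and 10.2 CPM in control libraries. The 3 proliferating libraries held 8 counts of it together and the 4 control libraries 1851, a ratio of 160 (95% exact counting interval 81 to 371), and the fitted rise was 7.28 ± 0.32 (adjusted p = 8.03e-07). Slc7a9 (ENSRNOG00000012344) stood at 0, 0.0312 and 0.0485 CPM in proliferating and 4.72, 5.48, 9.88 and 6.16 CPM in control libraries, with 3 counts against 1088, a ratio of 251 (85.6 to 1220). It passed (adjusted p = 2.34e-05), and the fitted value at so few counts depends on the prior count. Slc7a10 had 0 counts in all 3 proliferating libraries and 593 in control, at least 137-fold higher against a floor of 3 counts over the group (adjusted p = 3.49e-05). Slc38a4 had 2 counts against 52, a ratio of 18 (4.73 to 152).

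Other rises were smaller or began from low levels. Slc7a14 (ENSRNOG00000028097) stood at 0.287, 0.187 and 0.412 CPM in proliferating and 45.5, 30.1, 12.4 and 22.0 CPM in control libraries, a rise of 6.52 ± 0.57 (adjusted p = 3.13e-05). The control libraries spread over more than 3-fold, yet all lay above every proliferating library. Slc7a4 (ENSRNOG00000001874) stood at 1.17, 1.44 and 3.30 CPM and then 10.5, 10.2, 12.6 and 10.8 CPM, and rose by 2.51 ± 0.38 (adjusted p = 0.000607). Slc7a3 rose by 2.52 ± 0.75, from 0.597 ± 0.516 to 3.45 ± 0.643 CPM (adjusted p = 0.0167). Slc1a1 stood at 257, 359 and 341 CPM in proliferating and 657, 555, 636 and 562 CPM in control libraries, a rise of 0.94 ± 0.15 without overlap (adjusted p = 0.000851). Slc38a10 (ENSRNOG00000004604), an SLC38 member known as a carrier of glutamine, glutamate and aspartate, stood at 84.4, 90.4 and 81.1 CPM and then 196, 204, 217 and 206 CPM, and rose by 1.29 ± 0.10 (adjusted p = 1.82e-05). Slc6a8 rose by 0.61 ± 0.15, from 144 ± 20.2 to 217 ± 28.1 CPM, and Slc6a6 by 0.65 ± 0.19, from 160.4 ± 21.4 to 248 ± 55.2 CPM (adjusted p = 0.00708 and 0.0156). Slc7a6, Slc38a6 and Slc38a7 rose by 0.48 to 0.57. The call of Slc38a6 was lost in 7 of 11 alternatives, namely without any 1 control library, without proliferating library 2 or 3, and with the replicate block (adjusted p up to 0.169). With that block the calls of Slc38a7 (adjusted p = 0.0588) and Slc7a11 (0.0845) were lost too.

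The glutamine carrier Slc38a1 and the leucine carrier Slc7a5 were among the 5 that fell. Slc38a1 (ENSRNOG00000005291) stood at 736, 444 and 582 CPM in proliferating and 112, 101, 97.9 and 82.4 CPM in control libraries, and fell by 2.56 ± 0.19 (adjusted p = 1.24e-05), or by 2.36 ± 0.16 without library 1. Slc7a5 stood at 1187, 625 and 388 CPM and then 209, 161, 239 and 238 CPM, and fell by 1.77 ± 0.34 (adjusted p = 0.00219), or by 1.24 ± 0.23 without library 1. Every proliferating library lay above every control library for both genes. Slc36a4 fell by 1.53 ± 0.35, from 13.9 ± 6.34 to 4.72 ± 1.08 CPM (adjusted p = 0.00519). Slc7a11 fell by 4.10 ± 1.01 with all libraries (adjusted p = 0.00725) and by 1.36 ± 0.25 without library 1 (adjusted p = 0.0025), and Slc7a1 by 0.83 ± 0.25 (adjusted p = 0.0176) and by 0.43 ± 0.13 (adjusted p = 0.0238). Slc3a2 did not pass in either case (-0.77 ± 0.32, and -0.29 ± 0.22 without library 1).

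Without proliferating library 1, 3 further members passed in CG4 cells. The share of all genes that passed in that fit is not given here, so the count shows changes of the calls only. Slc1a5 differed by 0.03 ± 0.67 with all libraries and rose by 1.47 ± 0.39 without library 1 (adjusted p = 0.971 and 0.013). Slc6a9 differed by 0.29 ± 0.39 and then rose by 1.02 ± 0.19 (adjusted p = 0.531 and 0.00279). Slc7a8 differed by -1.19 ± 0.72 and then fell by 1.68 ± 0.57 (adjusted p = 0.176 and 0.0324). That fall of Slc7a8 is read against proliferating libraries 2 and 3 at 51.4 and 8.54 CPM, so it leans on library 2. The others that did not pass with all libraries were Slc1a4, Slc7a2, Slc7a7, Slc6a15, Slc6a17, Slc36a1, Slc38a2, Slc38a3, Slc38a9 and Slc7a6os, at -0.61 to 0.58. Without library 1 these 10 still did not pass, and the sign turned for Slc7a7 (from -0.61 to 0.47), Slc1a4 (from -0.19 to 0.13) and Slc38a2 (from -0.08 to 0.17).

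Set side by side, the 2 kinds of cells share no library. Members that passed in both numbered 18, which is 64.3% of the 28 calls in primary and 94.7% of the 19 calls in CG4 cells, beside 65.5% and 84.8% over all 11675 genes tested in both. Of these 18, 11 rose in both, 4 fell in both (Slc36a4, Slc38a1, Slc7a5 and Slc7a11) and 3 moved in opposite directions (Slc7a6, Slc38a6 and Slc38a7). Over all genes 6474 passed in both, of which 1981 rose in both, 2044 fell in both and 2449 moved in opposite directions. The 11 shared rises were those of Slc1a1, Slc3a1, Slc7a3, Slc7a4, Slc7a9, Slc7a10, Slc7a14, Slc6a6, Slc6a8, Slc38a4 and Slc38a10.

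**Figure D2:**
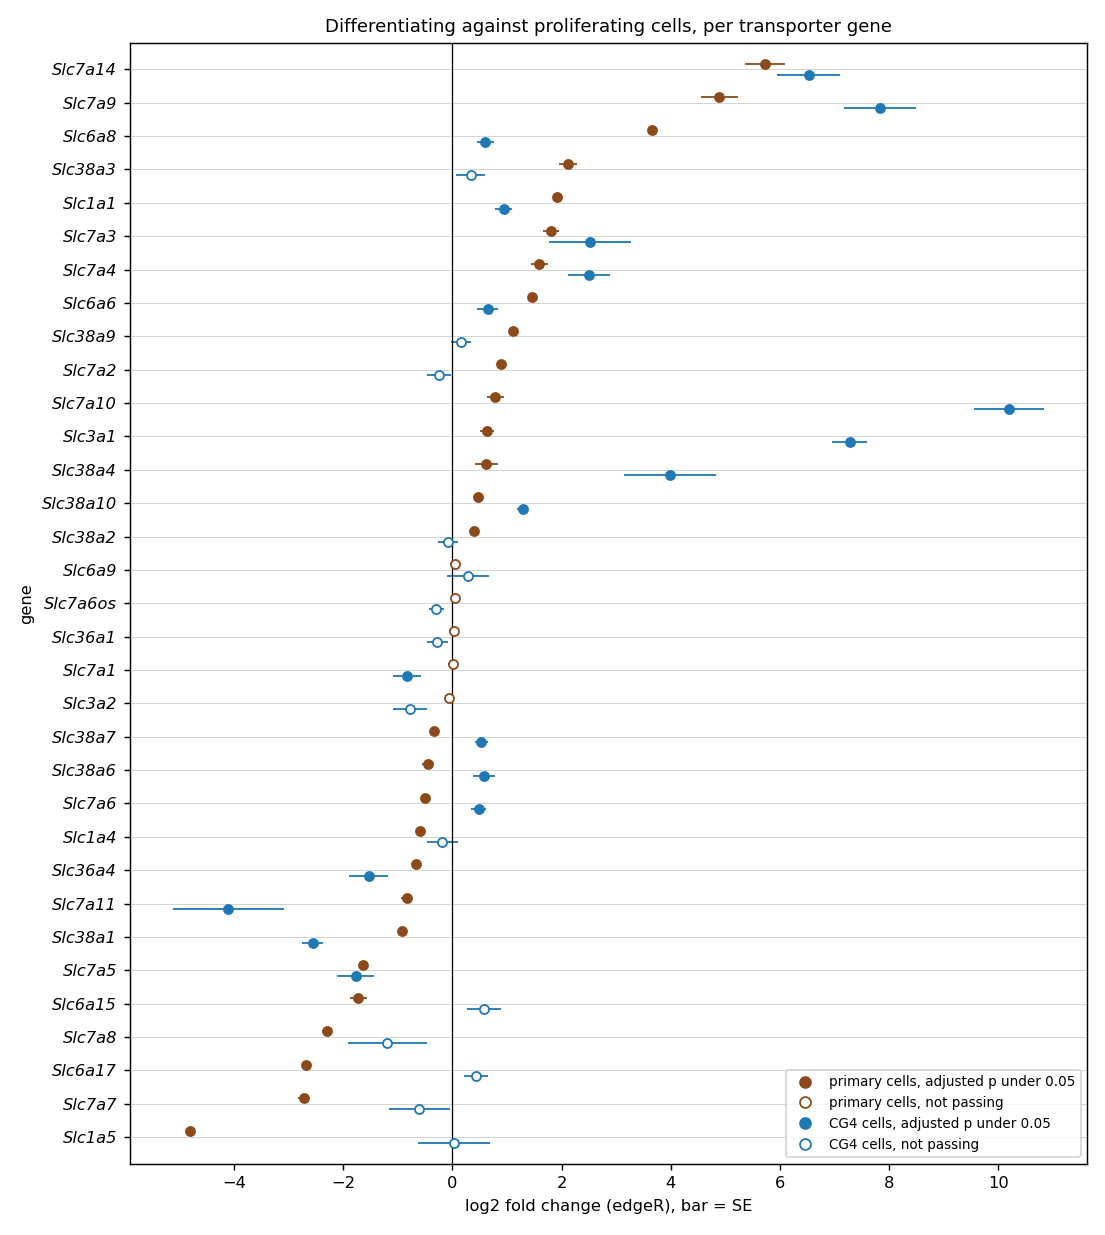
Log2 fold change of differentiating against proliferating cells (horizontal axis; bar, SE) for the 33 members in all files (vertical axis, ordered by the change in primary cells), in brown for primary and in blue for CG4 cells; filled points have an adjusted p under 0.05. Slc1a5 stood at -4.81 in primary cells and 0.03 in CG4 cells, and Slc3a1 at 0.64 and 7.28.

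The difference between the responses was tested directly, as the CG4 response minus the primary response. The fit takes a single spread per gene over primary and CG4 libraries, and primary replicates mostly lay closer together than CG4 replicates. The SE of a difference can therefore be too small for the CG4 side, and its adjusted p and the count of calls too favourable. The difference passed for 24 of 33 members, 13 higher and 11 lower, beside 69.3% of all genes (33.8% higher and 35.4% lower). Slc3a1 differed by 6.67 ± 0.29 (adjusted p = 8.5e-11), since its level in proliferating primary cells was 6.69 CPM where proliferating CG4 cells had 0.0714 CPM. Slc6a8 differed by -3.01 ± 0.15 (adjusted p = 2.72e-10), with control CG4 cells at 217 CPM and differentiating primary cells at 1390.1 CPM. Slc6a17 differed by 3.15 ± 0.22 (adjusted p = 1.18e-08). Its high level was seen in proliferating primary cells, and both CG4 groups, at 11.1, 13.8 and 16.2 and 20.7, 22.9, 14.7 and 14.8 CPM, lay in or near the range of differentiating primary cells. Slc1a5 differed by 4.88 ± 0.75 (adjusted p = 3.93e-05, and 6.31 ± 0.41 without proliferating CG4 library 1), with control CG4 libraries at 36.1, 38.6, 54.6 and 54.1 CPM against 6.54, 5.40, 5.72 and 6.18 CPM in differentiating primary libraries.

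Several smaller differences also passed. Slc38a1 differed by -1.59 ± 0.20 (adjusted p = 4.72e-06) and Slc38a10 by 0.86 ± 0.09 (adjusted p = 1.4e-06), both moving further in CG4 cells. Slc7a6 differed by 1.02 ± 0.13, from 133, 93.7 and 106 to 157, 144, 155 and 155 CPM in CG4 cells and from 108, 107, 107 and 107 to 70.1, 73.7, 75.8 and 76.6 CPM in primary cells (adjusted p = 7.07e-06). Slc38a7 differed by 0.91 ± 0.12, from 25.4, 26.3 and 30.3 to 41.0, 35.5, 37.8 and 41.5 CPM in CG4 cells and from 47.0, 47.7, 46.2 and 50.0 to 41.0, 36.1, 35.5 and 35.3 CPM in primary cells (adjusted p = 8.43e-06). These 2 genes rose in one kind of cell and fell in the other. The differences of Slc36a4, Slc38a2 and Slc7a4 passed narrowly and were lost in 17, 16 and 14 of 20 alternatives (adjusted p up to 0.168, 0.144 and 0.139). Leaving out any 1 of the 15 libraries ended them, except control 3 and proliferating CG4 1 for Slc36a4, control 1 and proliferating CG4 2 and 3 for Slc38a2, and proliferating primary 1, differentiating primary 3 and proliferating CG4 3 for Slc7a4. The difference of Slc7a1 (-0.80 ± 0.28, adjusted p = 0.018) was lost with differentiating primary libraries 3 and 4 alone (-0.58, adjusted p = 0.108) and was -0.40 ± 0.17 without proliferating CG4 library 1 (adjusted p = 0.0436). Slc7a5, Slc7a8, Slc7a14, Slc7a3, Slc3a2, Slc1a4, Slc6a9, Slc36a1 and Slc7a6os did not differ past the threshold with all libraries, with SE from 0.13 to 0.76.

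Without proliferating CG4 library 1, 24 members again passed for the difference of the responses, but not the same ones. The share of all genes that passed in that fit is not given here, so the count shows changes of the calls only. Slc1a4 went from 0.45 ± 0.30 to 0.76 ± 0.26 (adjusted p = 0.198 and 0.0176), Slc6a9 from 0.27 ± 0.42 to 1.00 ± 0.21 (adjusted p = 0.578 and 0.00061) and Slc7a6os from -0.29 ± 0.13 to -0.34 ± 0.14 (adjusted p = 0.0685 and 0.0381). Slc7a11 went from -3.24 ± 1.00 to -0.50 ± 0.24 and no longer passed (adjusted p = 0.081), nor did Slc7a4 (0.67 ± 0.35, adjusted p = 0.0995) and Slc38a2 (-0.20 ± 0.12, adjusted p = 0.144). Slc7a7 passed both ways, at 2.15 ± 0.58 and 3.21 ± 0.30 (adjusted p = 0.00399 and 3.89e-07).

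Genes of the ATF4 response were read beside the members in proliferating CG4 cells. Of 27 ATF4 response genes whose mean reached 1 CPM, 26 were highest in library 1 and 15 were there at least 2-fold above both other libraries (55.6%, beside 3.27% of all genes). Asns, which makes asparagine, stood at 467, 119 and 104 CPM, Trib3, a pseudokinase induced by ATF4, at 62.1, 6.78 and 2.62 CPM, and Chac1, which breaks down glutathione, at 68.7, 17.3 and 7.78 CPM in libraries 1, 2 and 3. Of the members, 16 were highest in the same library (59.3%, beside 37.1% of all genes). They were Slc7a11, Slc1a5, Slc7a5, Slc3a2, Slc7a1, Slc6a9, Slc38a1, Slc38a2 and Slc1a4, and also Slc7a7, Slc7a6, Slc6a6, Slc6a15, Slc38a3, Slc38a6 and Slc38a9. Their excess over the higher of the other libraries ran from 1.06-fold (Slc6a6) to 14.9-fold (Slc7a11). It was 1.26-fold for Slc38a1, 1.39-fold for Slc38a2 and 1.46-fold for Slc1a4. Slc6a8, Slc38a10, Slc1a1 and 8 other members were not. The labels give nothing on what sets library 1 apart, and its cause was not tested.

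**Figure D3:**
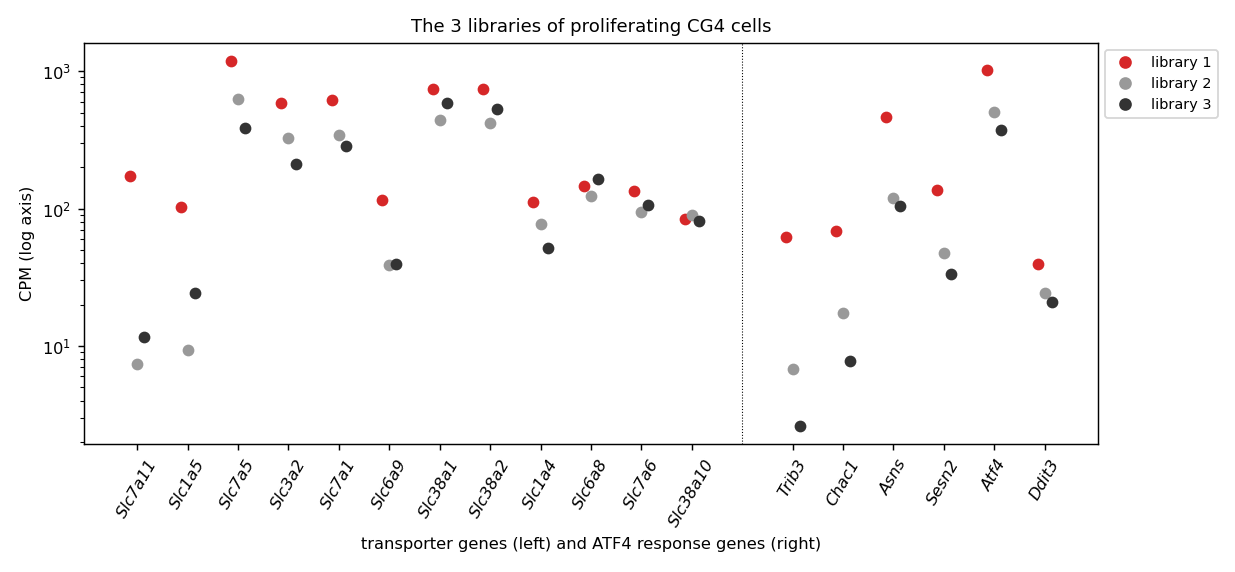
CPM (vertical axis, log scale) of 12 transporter genes (left of the dotted line) and 6 ATF4 response genes (right) in the 3 libraries of proliferating CG4 cells, 1 point per library. Library 1 (red) held 172 CPM of Slc7a11 against 7.43 and 11.5 CPM, while Slc38a10 stood at 81.1 to 90.4 CPM in all 3.

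Promoters of the members were read for short motifs because several of them were highest in the same library as the ATF4 genes. RefSeq promoters (build GRCr8, 250 bases before to 50 after the annotated start; the count files used rn6) matched 25 of the 34 members by symbol, with 26 promoters in all. The composite site of ATF4 and its C/EBP partners, searched as TGATGNAA on both strands, was in the promoters of 3 members, Slc38a1, Slc7a1 and Slc1a4, and in 3.98% of all 33469 promoters. The antioxidant response element, searched as TGACNNNGC on both strands, was in 7 members (Slc36a1, Slc38a2, Slc3a1, Slc3a2, Slc6a6, Slc7a1 and Slc7a7) and in 12.1% of all promoters. The core motif of Nkx2.2, CACTTNA on both strands, was in 0 of the 25 and in 11.5% of all promoters. The motifs differ in letters, and only Slc7a1 held 2 of them. A match describes these letters in this window and no more. The 250 bases before the start of the 3 promoters with TGATGNAA are shown because all 3 genes were highest in library 1. They are written along the gene's strand, with the motif in capitals, at -142 from the start in Slc38a1 (chr7:129681402-129681651, minus strand), at -30 in Slc7a1 (chr12:11664238-11664487, plus strand) and, as its reverse complement, at -235 in Slc1a4 (chr14:98761563-98761812, minus strand).
Slc38a1: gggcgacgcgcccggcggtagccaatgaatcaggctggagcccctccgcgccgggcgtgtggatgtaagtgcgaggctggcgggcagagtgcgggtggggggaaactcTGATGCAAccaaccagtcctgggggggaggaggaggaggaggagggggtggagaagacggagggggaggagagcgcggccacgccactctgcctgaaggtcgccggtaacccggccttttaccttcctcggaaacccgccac
Slc7a1: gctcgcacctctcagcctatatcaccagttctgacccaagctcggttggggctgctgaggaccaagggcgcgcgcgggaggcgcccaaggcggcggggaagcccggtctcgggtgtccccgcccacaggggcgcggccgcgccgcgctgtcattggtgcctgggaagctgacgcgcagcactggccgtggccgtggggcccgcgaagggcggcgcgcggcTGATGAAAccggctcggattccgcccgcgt
Slc1a4: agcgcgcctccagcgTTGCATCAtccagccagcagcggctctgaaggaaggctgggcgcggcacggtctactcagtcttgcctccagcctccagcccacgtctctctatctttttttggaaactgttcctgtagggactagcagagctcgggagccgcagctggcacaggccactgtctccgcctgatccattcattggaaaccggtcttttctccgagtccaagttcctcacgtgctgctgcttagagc

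The comparison of each factor with the control vector asks which transporters respond to added Zfp488 or Nkx2.2 in differentiating CG4 cells. The answer depends on whether the replicate number is taken as a block. Without the block, the fit given first, few members passed. With it more members passed for either factor, as did 24.1% of all genes with Zfp488 and 26.2% with Nkx2.2. Those members are given below. With Zfp488 the creatine transporter Slc6a8 rose and the arginine transporter Slc7a3 fell, 2 of 34 members beside 9.04% of all genes tested (5.89% higher and 3.15% lower). With Nkx2.2 the heavy chain Slc3a1, the SLC38 member Slc38a6 and the SLC7 relative Slc7a4 rose, and Slc7a3 and the branched-chain carrier Slc6a15 fell, 5 of 34 beside 10.6% (6.1% higher and 4.48% lower). The median change was -0.03 with Zfp488 and 0.06 with Nkx2.2 over the members, and -0.02 and -0.01 over all genes. Both comparisons use the same 4 control libraries.

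Slc6a8 stood at 207, 182, 234 and 244 CPM in control, 316, 338, 377 and 534 CPM in Zfp488 and 242, 224, 247 and 249.6 CPM in Nkx2.2 libraries. Every Zfp488 library lay above every control and Nkx2.2 library, with library 4 the highest, a rise of 0.86 ± 0.15 over control (adjusted p = 0.00703). The call held in all 18 alternatives. With Nkx2.2 the gene differed from control by 0.15 ± 0.15 (adjusted p = 0.569). The summed oligodendrocyte markers were 14347 to 25432 CPM in the Zfp488 libraries and 8827 to 15116 CPM in control, and their part in the rise was not tested. The 6 named neuron markers went both ways. Tubb3 stood at 274 to 450 CPM with Zfp488 and 41.8 to 199 CPM in control, and Syt1 at 45.2 to 90.6 and 105 to 143 CPM. Mean levels in control and with Zfp488 were 1.06 and 1.98 CPM for Gad1 and 0.532 and 1.18 CPM for Snap25. Those of Slc17a7 were 1.22 and 1.59 CPM, and those of Rbfox3 0.885 and 0.867 CPM. The part of these markers in the Zfp488 results was not tested either. Slc7a3 stood at 3.32, 4.00, 3.88 and 2.59 CPM in control, 1.49, 1.69, 2.60 and 1.63 CPM with Zfp488 and 0.968, 0.960, 1.43 and 0.792 CPM with Nkx2.2. It fell by 0.88 ± 0.23 with Zfp488 (adjusted p = 0.0346) and by 1.73 ± 0.24 with Nkx2.2 (adjusted p = 0.00075), and the libraries of the 3 groups overlapped only between control and Zfp488. The Zfp488 call was lost without control library 1, 2 or 3 or Zfp488 library 1, 2 or 4 (log2 change -1.09 to -0.80 over the alternatives, adjusted p up to 0.111).

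With Nkx2.2, Slc3a1 stood at 25.1, 21.2, 16.5 and 22.4 CPM against 11.6, 12.1, 10.8 and 10.2 CPM in control, a rise of 0.94 ± 0.12 (adjusted p = 0.000445) in which all 4 libraries lay above control. With Zfp488 it differed from control by 0.29 ± 0.12 (adjusted p = 0.149). Slc6a15 (ENSRNOG00000027468) stood at 51.8, 49.8, 66.5 and 45.8 CPM against 80.9, 78.6, 92.9 and 77.1 CPM and fell by 0.62 ± 0.11 (adjusted p = 0.00452), again without overlap. Slc38a6 (ENSRNOG00000022622) stood at 8.86, 8.64, 6.72 and 9.24 CPM against 6.28, 5.72, 5.67 and 5.42 CPM and rose by 0.54 ± 0.12 (adjusted p = 0.0132, and 0.0526 without Nkx2.2 library 4). Slc7a4 stood at 16.8, 14.6, 12.4 and 16.4 CPM against 10.5, 10.2, 12.6 and 10.8 CPM and rose by 0.45 ± 0.13 (adjusted p = 0.0398), with Nkx2.2 library 3 inside the range of control. Its call was lost in 8 of 18 alternatives, without control library 1, 2 or 4 or Nkx2.2 library 1, 2 or 4 among them (log2 change 0.40 to 0.53, adjusted p up to 0.119).

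Libraries of the same number deviated together across the 3 vectors, and with the number as a block 6 members passed with Zfp488 and 13 with Nkx2.2, where 24.1% and 26.2% of all genes then passed. The 4 further members with Zfp488 were all lower, namely Slc7a5 (-0.40 ± 0.09, adjusted p = 0.00856), Slc6a17 (-0.53 ± 0.10, 0.00353), Slc38a1 (-0.41 ± 0.10, 0.0112) and Slc6a15 (-0.26 ± 0.07, 0.0165). The 8 further members with Nkx2.2 included a rise of the glutamine carrier Slc38a3 (0.81 ± 0.15, 0.00339). They also included falls of Slc7a9, the partner of Slc3a1 (-1.06 ± 0.16, 0.00096), and of the glutamate transporter Slc1a1 (-0.34 ± 0.08, 0.013). The other 5 were Slc7a5, Slc6a9 and Slc6a20, which were higher, and Slc7a10 and Slc38a1, which were lower, with adjusted p from 0.0163 to 0.0451. Slc6a20 stood at 0.207, 0.175, 0.294 and 0.125 CPM in control and 0.399, 0.489, 0.411 and 0.336 CPM with Nkx2.2, so that call rests on few counts.

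**Figure D4:**
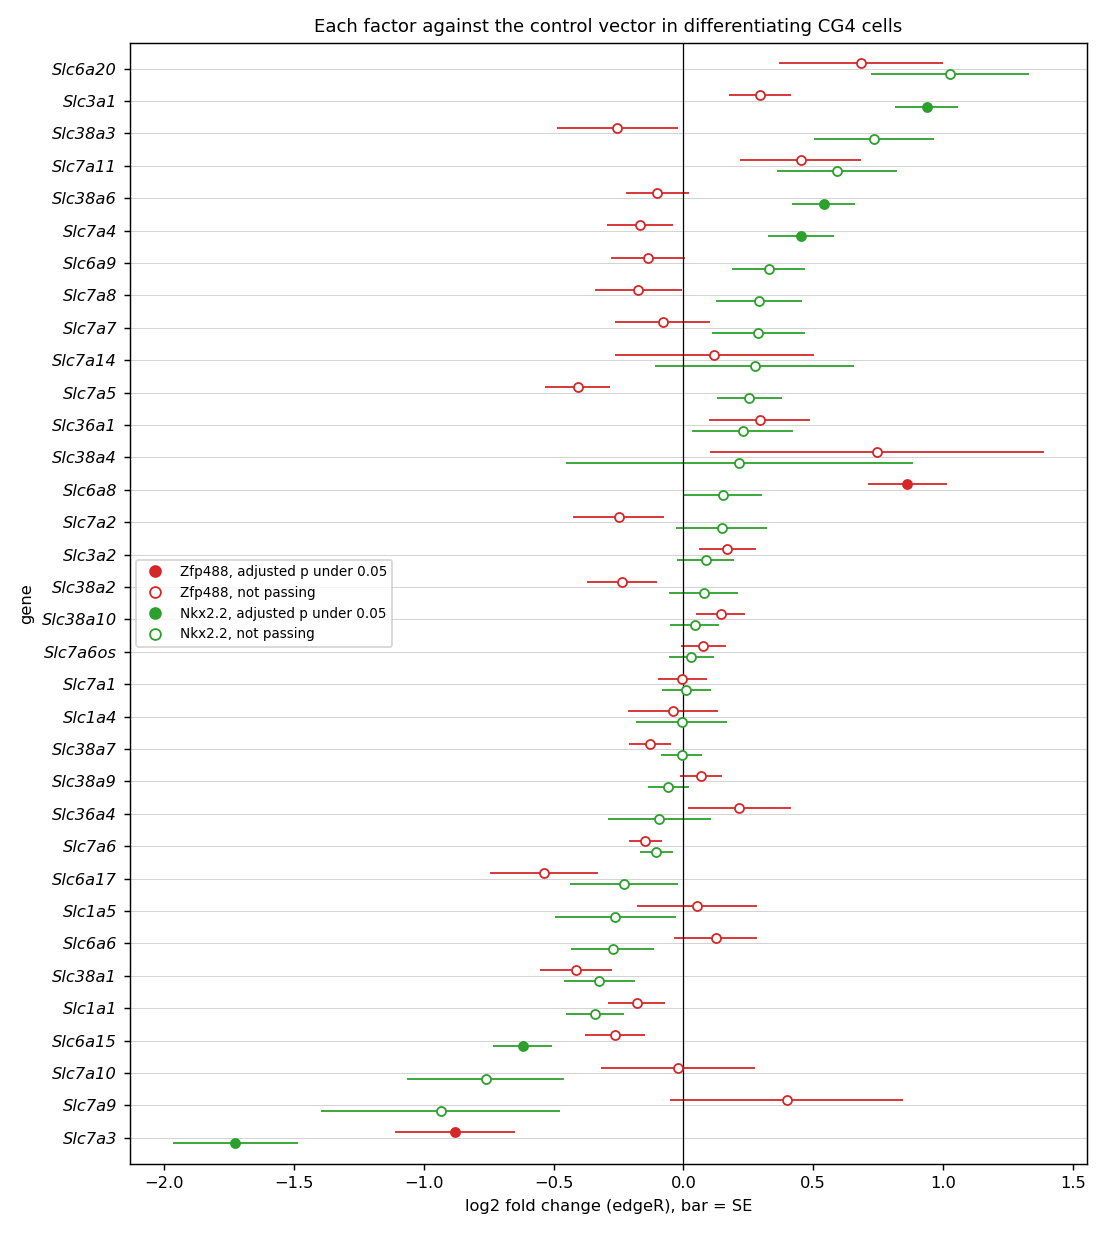
Log2 fold change against the control vector (horizontal axis; bar, SE) for the 34 members (vertical axis, ordered by the change with Nkx2.2), in red for Zfp488 and in green for Nkx2.2, without the replicate block; filled points have an adjusted p under 0.05. Slc6a8 stood at 0.86 with Zfp488, and Slc7a3 was lower with both.

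The factors were also set against each other, within the same fit of all 12 libraries. Of 34 members 9 passed, 3 higher and 6 lower with Zfp488 than with Nkx2.2, beside 25.3% of all genes (13.3% higher and 12% lower), and 16 passed with the replicate block, beside 42.4%. Slc3a1 was lower with Zfp488 (-0.64 ± 0.12, adjusted p = 0.0025), at 13.8, 14.9, 12.8 and 12.9 CPM against 25.1, 21.2, 16.5 and 22.4 CPM. Slc7a5 was also lower (-0.66 ± 0.13, adjusted p = 0.00272), at 179, 141, 161 and 154 CPM against 256, 233, 273 and 246 CPM, on either side of the mean of control (212 CPM). The 2 groups did not overlap for either gene. Slc6a8 was higher by 0.71 ± 0.15 (adjusted p = 0.0055).

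The glutamine carrier Slc38a3 also differed between the factors. Slc38a3 (ENSRNOG00000016827) stood at 28.2, 32.6, 49.2 and 31.6 CPM with Zfp488, 68.1, 67.5, 68.8 and 78.0 CPM with Nkx2.2 and 27.2, 34.7, 62.5 and 45.6 CPM in control, a difference between the factors of -0.99 ± 0.23 (adjusted p = 0.0093). All 4 Nkx2.2 libraries lay above all Zfp488 and all control libraries. The glycine transporter Slc6a9 (ENSRNOG00000019484) stood at 72.4, 71.8, 73.6 and 64.8 CPM with Zfp488 and 81.1, 90.0, 117 and 103 CPM with Nkx2.2 (-0.46 ± 0.14, adjusted p = 0.031). Slc38a6 was lower with Zfp488 (-0.64 ± 0.12, adjusted p = 0.00271), at 5.33, 5.77, 5.30 and 4.98 CPM, as was Slc7a4 (-0.62 ± 0.13, adjusted p = 0.00445), at 10.7, 8.80, 10.6 and 8.94 CPM. Their Nkx2.2 libraries, given above, all lay higher. Slc7a3 (0.84 ± 0.24) and Slc6a15 (0.36 ± 0.11) were higher with Zfp488. The calls of Slc6a15, Slc6a9 and Slc7a3 were lost in 6, 4 and 4 of 18 alternatives, each of them a left-out library of the Zfp488 or Nkx2.2 group or, for Slc6a15, also the fit of the 2 groups alone.

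The authors' deposited tables, which their notes attribute to DESeq2, give an adjusted p under 0.05 to 4 members for Zfp488 and 9 for Nkx2.2, and these include the 2 and the 5 that passed here. The share of all genes with such a value there is not given here, so these counts say nothing particular about the members. In the authors' deposited table Slc6a8 has a log2 fold change of 0.87 with Zfp488, and Slc3a1 one of 0.94 with Nkx2.2. The sign was the same for 33 of 34 members with Zfp488 and for all 34 with Nkx2.2.

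Creatine genes around Slc6a8 were read next, since creatine is made in 2 steps by Gatm and Gamt, taken up by Slc6a8 and used by the kinase Ckb. With Zfp488, Gatm stood at 68.8, 97.6, 152 and 169 CPM against 32.8, 40.4, 52.9 and 42.5 CPM in control, a rise of 1.54 ± 0.33 (adjusted p = 0.0158) without overlap. Gamt (0.34 ± 0.19) and Ckb (0.37 ± 0.14) did not pass (adjusted p = 0.296 and 0.125). In primary differentiation Gatm rose by 2.13 ± 0.13 and Gamt by 3.96 ± 0.14, from 26.6 ± 1.77 to 403 ± 87.2 CPM, while Ckb fell by 0.33 ± 0.04. In CG4 differentiation Gamt rose by 2.33 ± 0.26, from 46.3, 26.4 and 53.9 to 197, 177, 202 and 256 CPM, and Gatm fell by 1.19 ± 0.32 (adjusted p = 0.0118).

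**Figure D5:**
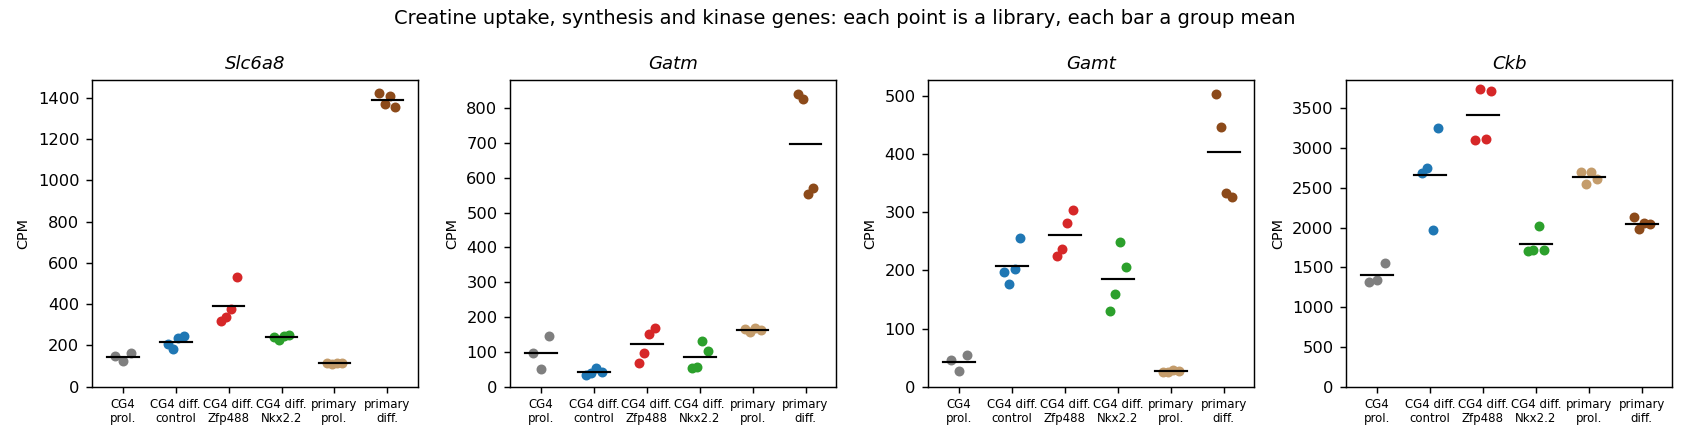
CPM (vertical axes, linear, each from 0) of the creatine transporter Slc6a8, the synthesis genes Gatm and Gamt and the kinase Ckb in the 6 groups; points are libraries and bars are group means. Slc6a8, Gatm and Gamt had their highest means in differentiating primary cells, at 1390.1, 698 and 403 CPM.

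Other genes of amino acid metabolism were counted from 4 lists. Of 38 tested amino acid enzymes, 3 rose and 2 fell with Zfp488, beside 5.89% and 3.15% of all genes, and 5 rose and 5 fell with Nkx2.2, beside 6.1% and 4.48%. Glul, glutamine synthetase, stood at 623, 953, 1019 and 1402 CPM with Zfp488 against 335, 349.6, 279 and 295 CPM in control, a rise of 1.68 ± 0.21 (adjusted p = 0.00196) without overlap. The summed astrocyte markers, of a cell type that also expresses Glul, were 1239 to 2321 CPM with Zfp488 and 1673 to 3165 CPM in control, a sum made up mostly of Gfap and Fgfr3. Of the 5 markers Aldh1l1 lay higher with Zfp488 without overlap (0.798 to 2.37 against 0.248 to 0.692 CPM), Slc1a2 had the higher mean there (1.82 against 1.03 CPM), and Gfap, Fgfr3 and Slc1a3 had the lower mean. Their part in the rise of Glul was not tested. Cdo1, which oxidises cysteine toward taurine, fell by 0.83 ± 0.19 with Zfp488 and rose by 1.08 ± 0.19 with Nkx2.2 (adjusted p = 0.0221 and 0.00332), and the transaminase Gpt2 fell by 0.39 ± 0.08 and 0.64 ± 0.08. In primary differentiation 21 of 37 enzymes rose and 12 fell, beside 41.5% and 43.3% of all genes. Glul rose by 2.83 ± 0.04, from 294 to 2034 CPM, Csad, the taurine synthesis enzyme, by 2.65 ± 0.05, and Abat, a mitochondrial transaminase, by 3.48 ± 0.09. The polyamine enzyme Odc1 fell by 2.07 ± 0.06. In CG4 cells 12 of 37 rose and 9 fell, beside 32.5% and 33.2%.

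Of 31 tested genes of the ATF4 response, 9 rose and 0 fell with Zfp488, beside 5.89% of all genes that rose, and 1 rose and 0 fell with Nkx2.2, beside 6.1%. At an unadjusted p under 0.05, edgeR gave 11 higher and 0 lower with Zfp488 and 5 higher and 4 lower with Nkx2.2, and the authors' deposited tables call 9 and 0, and 3 and 0. Shares of all genes for these unadjusted and deposited counts are not given here. The list's median change was 0.12 with Zfp488 and -0.09 with Nkx2.2. Ddit3, a stress transcription factor, rose by 0.89 ± 0.12 (adjusted p = 0.00201) and Trib3 by 1.19 ± 0.23 (adjusted p = 0.0098) with Zfp488. Of the members known as ATF4 targets, Slc7a11 stood in that comparison at 0.45 ± 0.23, Slc3a2 at 0.17 ± 0.11, and Slc7a5 at -0.41 ± 0.12, none of them past the threshold without the replicate block. Slc7a1, Slc1a4, Slc1a5, Slc6a9, Slc38a2 and Slc38a1, also named above for proliferating CG4 library 1, stood at -0.41 to 0.05 and did not pass. With the block Slc7a5 (-0.40 ± 0.09, adjusted p = 0.00856) and Slc38a1 (-0.41 ± 0.10, adjusted p = 0.0112) were lower. In CG4 differentiation 3 of 27 rose and 10 fell, beside 32.5% and 33.2% of all genes. That count includes proliferating CG4 library 1, where 26 of the 27 list genes at or above 1 CPM were highest. A count without library 1 is not given here, so the falls cannot be told apart from that library's high levels. In primary differentiation 13 of 27 rose and 8 fell, beside 41.5% and 43.3%.

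For mTORC1 sensing, the pathway fed by Slc38a9 and Slc7a5, 3 of 30 genes rose and 2 fell with Zfp488, beside 5.89% and 3.15% of all genes. With Nkx2.2, 1 rose and 1 fell, beside 6.1% and 4.48%. In primary differentiation 13 of 27 rose and 7 fell, beside 41.5% and 43.3%. There the lysosomal regulator Tfeb rose by 3.19 ± 0.07 and its partner Flcn by 1.80 ± 0.06. Of 27 amino acid carriers of other families 0 passed with Zfp488 in edgeR, where 2 were higher and 1 lower at an unadjusted p under 0.05 and the authors' deposited table calls 0 higher and 1 lower. The unadjusted and deposited counts again stand without a share of all genes. In this list 2 rose and 1 fell with Nkx2.2, beside 6.1% and 4.48% of all genes, and in primary differentiation 12 of 21 rose and 6 fell, beside 41.5% and 43.3%, with the lysosomal peptide and histidine carrier Slc15a4 at 2.75 ± 0.05.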

How the data were processed

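RNA-seq libraries were trimmed with Trimmomatic 0.36, aligned with STAR 2.5.2b to rn6 and counted per gene with featureCounts of Subread 1.5.2, per the submitters' processing notes. Which annotation and strand setting were used, and how reads mapping to several places were handled, is not given in the sources used here. Counts of genes that overlap or have near copies are therefore uncertain. The authors deposited whole-number counts per gene and library, and 2 tables of their own DESeq2 comparisons with log2 fold changes, p-values and adjusted p-values, and a normalized signal per library that was not used here. The processing notes also name edgeR.

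Counts were tested with edgeR 4.0.16 (R 4.3.3) as quasi-likelihood fits after filterByExpr and TMM scaling, with Benjamini-Hochberg adjustment over all genes tested and a threshold of 0.05. The 12 differentiating CG4 libraries were fitted together over all their genes. Primary cells, CG4 cells and the difference of their responses were fitted over the genes listed in all 23 files, since 8.24% to 10.5% of the counts in differentiating CG4 files lie in genes listed only there. Each count was recomputed with DESeq2 1.42.0, with RLE size factors, without the filter, with each library left out, with the replicate number as a block (not run for the difference of the responses), for differentiating CG4 cells over the compared groups alone and over shared genes alone, and at a threshold of 0.01. The fits with primary cells were also run with their differentiating libraries summed by pair. After the data were seen, fits with only one pair of these libraries, and group means without proliferating CG4 library 1, were added. No column of per-sample values was left unmapped. Replicates differed by more than counting noise and were kept apart. The chi-square per degree of freedom ran from 2.11 to 4.33 in proliferating and from 1.74 to 35.5 in differentiating primary cells. In the CG4 groups it ran from 21.9 to 254. The p-values of primary cells are therefore read against a mostly narrower spread than those of CG4 cells.

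Replicate numbers are given in the labels without a meaning. Deviations from the group mean of same-numbered differentiating CG4 libraries correlated at 0.148 to 0.666 (Pearson, across genes). Nkx2.2 library 2 correlated at 0.332 with control library 2 and at 0.353 with a control library of another number. The fit given first does not use the numbers, and the block that pairs these libraries is an alternative. Deviations of same-numbered libraries correlated at -0.024 to 0.0584 in primary cells and -0.0974 to 0.0129 between control and proliferating CG4 cells. There the numbers were not taken as pairs, and the block was run only as an alternative.

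The members and lists were chosen with earlier results of these data known. Full values are given for members that passed with a mean of at least 5 CPM in a compared group, up to 8 with the smallest adjusted p per comparison, and other lists give up to 4 genes each. Slc7a3, Csf1r, the creatine genes and the ATF4 genes of proliferating CG4 cells were named after their values were seen. A further gene that fits the rule for members, and a marker gene, are not reported here. The scripts were tested on simulated data. Intervals of counts are exact at 95% and cover counting error only.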

Additional observations from a re-analysis of the deposited data

Results flagged for a closer look

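In 10 of 159 groups of 4 libraries, 1 library lay far from the other 3 by Dixon's test, where chance gives about 1 in 20. Slc1a4 stood at 78.4 CPM in Zfp488 library 3, above 61.9 to 64.4 CPM in the others, and at 87.7 CPM in Nkx2.2 library 3, above 61.3 to 65.8 CPM. Slc7a10 stood at 6.22 CPM in Zfp488 library 3, above 2.40 to 3.04 CPM, and at 1.37 CPM in proliferating primary library 1, above 1.07 to 1.09 CPM. The number 3 thus occurs in 3 of the 10. Slc7a8 stood at 11.0 CPM in Zfp488 library 1, above 7.13 to 7.30 CPM, and Slc38a3 at 78.0 CPM in Nkx2.2 library 4, above 67.5 to 68.8 CPM. The remaining 4 were Slc7a5 at 375 CPM in proliferating primary library 2 (others 405 to 410.0), Slc7a6 at 144 CPM in control library 2 (155 to 157), Slc7a7 at 2.07 CPM in differentiating primary library 2 (1.62 to 1.63) and Slc38a7 at 41.0 CPM in differentiating primary library 1 (35.3 to 36.1).

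The differentiation response of CG4 cells minus that of primary cells passed edgeR's test of the difference for 24 members. It was higher in CG4 cells for Slc7a10 (9.15, a fitted value against 0 counts), Slc3a1 (6.67), Slc1a5 (4.88), Slc38a4 (3.33), Slc6a17 (3.15), Slc7a9 (2.95), Slc6a15 (2.33) and Slc7a7 (2.15). Smaller positive differences were those of Slc38a6 (1.06), Slc7a6 (1.02), Slc7a4 (0.95), Slc38a7 (0.91) and Slc38a10 (0.86). It was lower in CG4 cells for Slc7a11 (-3.24), Slc6a8 (-3.01), Slc38a3 (-1.74), Slc38a1 (-1.59), Slc7a2 (-1.10), Slc1a1 (-0.93), Slc38a9 (-0.92), Slc36a4 (-0.81), Slc7a1 (-0.80), Slc6a6 (-0.77) and Slc38a2 (-0.44). The vector, the read length and the gene list differ between the CG4 groups and cannot be told apart from the response. The test takes a single spread per gene over both kinds of cells, a limit given above.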

How the results depend on the processing

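No member count or named call turned its direction under any alternative. The counts below are given without the share of all genes under each alternative, so they show changes of the calls only. With Zfp488, 2 members passed, 6 with the replicate block, 1 at an adjusted p under 0.01, and 1 to 3 when a library was left out. With Nkx2.2, 5 passed, 7 with DESeq2, 13 with the replicate block, 3 at an adjusted p under 0.01, and 3 to 7 when a library was left out. Between the factors 9 passed, 16 with the replicate block, and 6 to 12 when a library was left out. The other 3 counts stayed within 1.5 times under every alternative run, at 27 to 29 in primary cells, 17 to 22 in CG4 cells and 21 to 25 for the difference when a library was left out. With the replicate block 28 members passed in primary cells, and 15 in CG4 cells over the 3 shared numbers. A fit of the difference with the block was not run. Losses of single calls are given beside the members, and the cause was not tested. Precision is limited for members with few counts, such as Slc7a9, Slc7a10, Slc38a4 and Slc3a1 in proliferating CG4 cells and Slc6a20 throughout.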
